A study of Mus musculus with 20 samples.

Results

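The genes described here encode the proteasome. They are all genes of the count table whose mouse symbol is Psma, Psmb, Psmc, Psmd, Psme, Psmf or Psmg followed by a number, together with Vcp. The rule uses names only, and it finds 49 of the 55487 genes in the table, on 16 chromosomes. The 20 RNA-seq libraries were made at postnatal day 1 from mouse subcerebral projection neurons, which sit in the cortex and send axons to brainstem and spinal targets. Per the labels, 5 libraries hold wild-type (WT) somata and 5 hold Bcl11b KO somata, taken from cortex. Growth cones, the motile ends of these axons, were collected from brainstem and spinal cord and make up 5 WT and 5 Bcl11b KO libraries. Bcl11b is a transcription factor gene, and the design text calls the mutant neurons null. Neither the kind of null allele nor the cells that lack the gene are named in the labels.

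The proteasome is the protease that degrades proteins carrying ubiquitin chains. Its core particle is a barrel of alpha rings (Psma genes) around beta rings (Psmb genes), and the beta rings hold the catalytic sites. A regulatory particle caps the barrel. Its base is built from ATPases that unfold substrates (Psmc genes) and from large scaffold and ubiquitin-receptor subunits (Psmd1, Psmd2 and Psmd4), and its lid, from other Psmd subunits, removes ubiquitin. Vcp encodes an ATPase that pulls ubiquitinated proteins out of membranes and complexes and passes them on. In neurons, local protein degradation in axons and growth cones is a known part of axon guidance and of synapse remodelling.

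By role, the members comprise 8 alpha ring genes (Psma8, the testis form, among them), 7 standard beta ring genes, 4 immune or thymus beta genes (Psmb8 to Psmb11), 6 base ATPases, 3 other base subunits, 8 lid subunits, 7 assembly factors (Psmd5, Psmd9, Psmd10 and Psmg1 to Psmg4), 5 activator and regulator genes (Psme1 to Psme4 and Psmf1), and Vcp. Below, core means Psma1 to Psma7 with Psmb1 to Psmb7, and the Psmd subunits are the base and lid genes without the assembly factors.

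Neuronal identity and other sources of RNA were checked first. Total counts ran from 18962308 to 51205154 per library. None of the 12 subcerebral projection neuron markers was at 0 in all libraries of a group, and their summed level was 1664 to 2142 CPM (counts scaled to a common library size, with TMM factors) in WT somata and 801 to 1064 CPM in WT growth cones. Markers of other cells were higher in WT growth cones than in WT somata, at edgeR's FDR under 0.05, for 7 of 8 interneuron genes, 6 of 7 astrocyte genes, 6 of 7 oligodendrocyte genes, 6 of 6 tested choroid plexus and meninges genes, 9 of 9 tested hindbrain and spinal cord genes, 4 of 7 tested vessel and blood genes and 1 of 7 microglia genes. The summed astrocyte markers were 19.1 to 201 CPM in WT somata and 723 to 943 CPM in WT growth cones. The summed oligodendrocyte markers were 65.9 to 128 and 519 to 2198 CPM, and those of hindbrain and spinal cord were 0.0650 to 0.251 and 82.9 to 194 CPM. In WT somata 4 of the 12 hindbrain and spinal cord markers (Hoxb3, Hoxc4, Hoxc6 and Hoxd4) were at 0 in all libraries, and no other marker of these cell types was. A list of 8 nuclear-retained RNAs, Malat1 among them, was read too. It summed to 317 to 857 CPM in WT somata and 506 to 855 CPM in WT growth cones, which overlap. In labelled KO the sums were 433 to 910 CPM and 220 to 1223 CPM. The part of nuclear RNA in the growth cone libraries was not tested. Growth cones and somata differ in tissue of origin, in RNA input (0.19 to 3.1 ng against 1.8 to 3.1 ng, per the labels' protocols) and in experiment numbers, and for every compartment value below these cannot be told apart. The part of other cells in the members' values was not tested. Bcl11b itself stood at 537 to 805 CPM in WT somata and at 1079 to 1231 CPM in somata labelled KO (log2 fold change 0.71 ± 0.12, SE, edgeR FDR 0.0153), so the counts of this gene show no loss. Whether the allele leaves a counted transcript is not given in the labels. Of the 12 subcerebral markers, Crym (-2.20 ± 0.31 SE) and Pcp4 (-1.86 ± 0.23 SE) were lower in labelled KO somata. Etv1 (1.73 ± 0.23 SE), Diaph3 (1.70 ± 0.27 SE) and Tox (0.56 ± 0.09 SE) were higher (edgeR FDR 0.00367 to 0.0114), and the others did not pass. In growth cones Bcl11b stood at 72.3 to 122 CPM in WT and 69.7 to 140.4 CPM in labelled KO (0.03 ± 0.25 SE, edgeR FDR 0.999), so the counts do not tell the labels apart there. The libraries are called labelled KO throughout. The libraries of a group are treated as separate samples, but no label says that they came from separate animals, so p-values measure the spread between these libraries.

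Promoter sequence is a feature that the members' rule did not use. RefSeq promoters (build GRCm38.p6) were matched by symbol to 41 of the 49 members, and the 250 bases before each start were searched on both strands. Proteasome genes are textbook targets of the transcription factor encoded by Nfe2l1, which binds antioxidant response elements of the form TGACNNNGC. These letters occurred before 6 of 41 members (Psmb5, Psmb6, Psmc6, Psmd9, Psmd12 and Vcp), or 14.6%, and before 11.5% of the 27025 genes in the table. The ETS-type letters CCGGAAGT occurred before 5 of 41 members (Psmc1, Psmc2, Psmd6, Psmd12 and Psme4), or 12.2%, against 3.23% of all genes. CCAAT occurred before 36.6% of members and 37.5% of all genes, and TATAAA before 12.2% and 14.3%. The 4 stretches below lie before the starts of Psmb5 and Psmb6, catalytic subunits of the same beta ring that moved by different amounts, and of Psmd2 and Vcp, the members that passed the test with the lowest fold changes in both genotypes. Each is written 5′ to 3′ on the gene's strand, from chr14:54618023-54618115 (minus strand), chr11:70525237-70525356 (plus), chr16:20651532-20651651 (plus) and chr4:43000508-43000627 (minus), and capitals mark matches to TGACNNNGC, to CCAAT or to its reverse complement ATTGG.
Psmb5: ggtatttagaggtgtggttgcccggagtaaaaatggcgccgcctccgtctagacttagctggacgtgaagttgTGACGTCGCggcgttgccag
Psmb6: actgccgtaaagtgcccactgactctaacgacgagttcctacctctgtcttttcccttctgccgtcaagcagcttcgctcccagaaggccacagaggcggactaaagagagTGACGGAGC
Psmd2: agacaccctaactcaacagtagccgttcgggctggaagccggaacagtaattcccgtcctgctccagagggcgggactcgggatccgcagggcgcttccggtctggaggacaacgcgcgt
Vcp: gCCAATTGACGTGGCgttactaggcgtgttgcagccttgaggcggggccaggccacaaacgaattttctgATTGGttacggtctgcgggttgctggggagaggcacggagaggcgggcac
Psmb5 and Psmb6 both carry TGACNNNGC, with the first base of the match 47 and 9 bases before the start. For Psmb5 the last 27 bases before the RefSeq start are left out of the printed stretch because the gene model of the table covers them. The Psmd2 window holds none of the searched letters. In the Vcp window CCAAT adjoins TGACGTGGC without overlap, and ATTGG lies further downstream. A match describes letters and no binding was measured.

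The first comparison asks which proteasome transcripts differ between growth cones and somata. No experiment number is shared between the compartments. In WT most of the members that could be tested were lower in growth cones. The median was lower for the Psmd subunits, which have longer coding sequences, than for the core. Vcp and the base scaffolds Psmd2 and Psmd1 fell the furthest, by 7.64-fold, 9.33-fold and 7.28-fold, while the alpha subunits Psma3 and Psma7 and the beta subunit Psmb6 did not pass the test. Psmb10, Psmg4 and Psme2 rose. All log2 fold changes are growth cones over somata, and FDR is the Benjamini-Hochberg adjusted p of edgeR's quasi-likelihood test over all genes tested.

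Of the 49 members, 46 passed the filter on low counts in WT, and 33 of these differed at FDR 0.05, 30 lower and 3 higher. Over all 15128 genes tested, 42.8% differed, 19.7% lower and 23.1% higher. The members' median log2 fold change was -0.81, and that of all genes was 0.07. In 28 members every growth cone library was below every soma library, against 18.1% of all genes, and in 2 members every growth cone library was above, against 19.8% (37.9% in either direction). In bulk RNA, fewer cells of a type and less RNA per cell cannot be told apart, and a lower CPM is lower relative to the other RNA of the same library. Upper-quartile scaling moved the median of all genes from 0.07 to 0.28, and 24 members were then lower and 3 higher, where 15.5% of all genes were lower and 26.4% higher.

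Each part of the particle had its own count. Of the 14 core genes 10 were lower and none higher (median -0.78), of the 6 base ATPases 5 were lower (median -1.07), and of the 11 Psmd subunits 10 were lower (median -1.64). All 8 lid subunits were lower. Under at least 1 of the other settings or left-out libraries 8 of the 33 calls were lost (Psma2, Psma4, Psmb7, Psmd8, Psme2, Psmf1, Psmg1 and Psmg4), and 25 held in all of them. The assembly factors were mixed, with 2 lower and 1 higher of 7 (median 0.02), and so were the activators and Psmf1, with 2 lower and 1 higher of 5 (median 0.06).

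**Figure D1:**
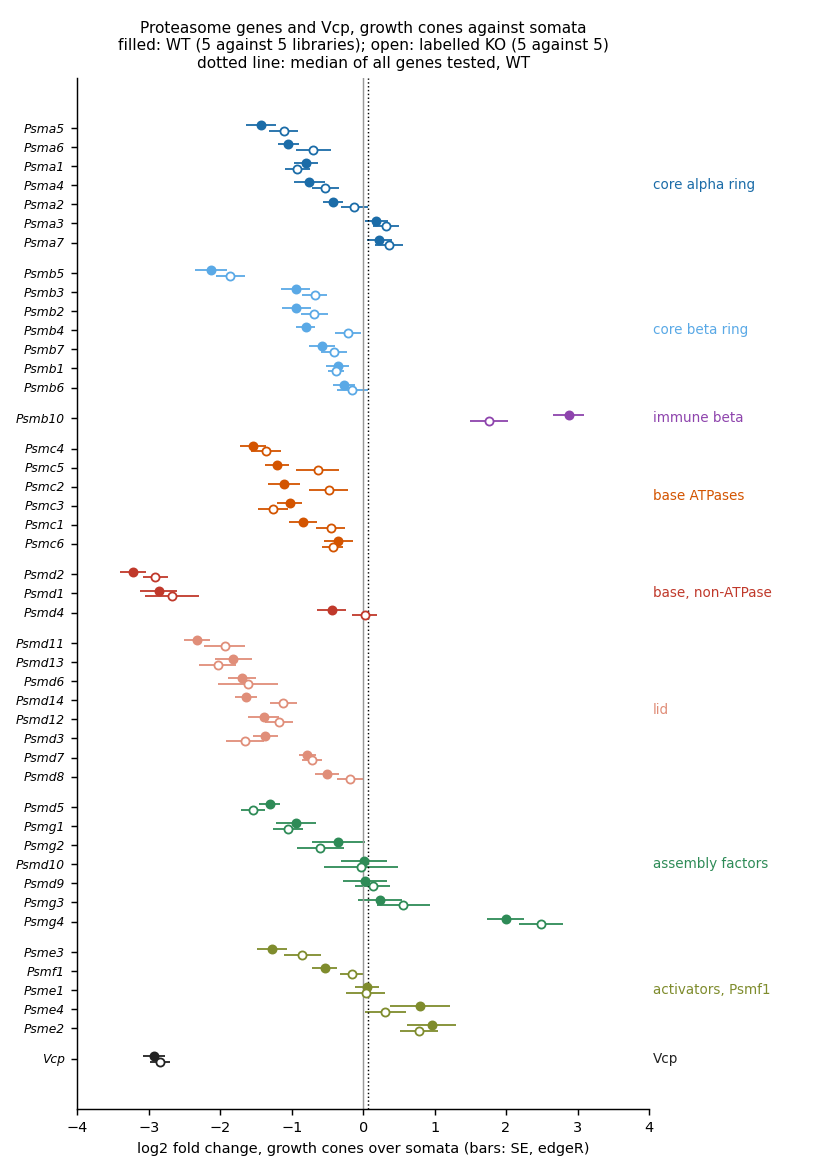
Log2 fold change, growth cones over somata, for each tested member except Psmb8, by role. Filled points are WT and open points are labelled KO (5 libraries against 5 each), bars are the standard error, and the dotted line is the median of all genes in WT (0.07). Psmd2, Vcp and Psmd1 lie furthest to the left (Psmd2 -3.22 in WT), and Psmb10 and Psmg4 lie to the right.

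Vcp (ENSMUSG00000028452.7, chr4:42979963-43000507, GRCm38) stood at 635, 714, 930.0, 901 and 874 CPM in the 5 WT soma libraries. In the 5 WT growth cone libraries it stood at 92.0, 120.2, 104, 84.8 and 112 CPM. Every growth cone library was far below every soma library, and the log2 fold change was -2.93 ± 0.16 (SE, FDR 1.35e-07), which placed Vcp at rank 28 by p among the genes tested. The libraries labelled KO had 734, 756, 809.8, 729 and 784 CPM in somata and 119, 85.1, 115, 82.6 and 99.5 CPM in growth cones, a log2 fold change of -2.84 ± 0.14 (SE, FDR 1.66e-07). Again no growth cone library reached the soma range.

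A processed pseudogene of Vcp, Vcp-rs on chromosome X, makes part of this count uncertain, since no source used here says how reads with several alignments were counted. Vcp-rs held 1.42 to 4.61% of the Vcp count in the 10 soma libraries and 17.6 to 50.5% in the 10 growth cone libraries. With its counts added to those of Vcp, the log2 ratio of mean CPM, growth cones over somata, was -2.62 in WT and -2.52 in labelled KO, in place of -2.98 and -2.93. Exons of Vcp also overlap 1700022I11Rik on the opposite strand, and the use of strand in counting is not given.

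Among the base scaffolds, Psmd2 (ENSMUSG00000006998.16, chr16:20651652-20663414), which binds ubiquitin-like domains of shuttle proteins, stood at 832, 921, 1075, 1075 and 1059 CPM in WT somata. It stood at 111, 143, 91.7, 84.1 and 84.4 CPM in WT growth cones, with no overlap between the groups (log2 fold change -3.22 ± 0.18 SE, FDR 1.70e-07). For Psmd2 in labelled KO, levels were 775, 920.2, 963, 815 and 872 CPM in somata and 115, 81.7, 146, 88.3 and 116 CPM in growth cones (-2.91 ± 0.17 SE, FDR 4.80e-07). Psmd1, the other large scaffold, had a log2 fold change of -2.86 ± 0.26 (SE, FDR 6.28e-06) in WT and -2.68 ± 0.38 (SE, FDR 2.07e-04) in labelled KO. Its exons overlap Htr2b on the opposite strand and Gm21972 on the same strand. Psmd4, the ubiquitin receptor of the base, did not pass the test. Its log2 fold change was -0.44 ± 0.21 (SE, FDR 0.1) in WT and 0.02 ± 0.17 (SE, FDR 0.94) in labelled KO, and its groups overlapped in both. The log2 ratio of Psmd2 to Psmd4 CPM was 2.05 ± 0.27 (SD, n = 5) in WT somata and -0.71 ± 0.66 (SD, n = 5) in WT growth cones.

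Of the lid subunits, 8 of 8 passed the test in WT, with Psmd8 the least stable. Psmd11, a scaffold of the lid, had the lowest p of its subunits there. It was at 262, 225, 229, 245 and 284 CPM in WT somata and at 66.0, 52.8, 40.8, 38.1 and 42.3 CPM in WT growth cones, a log2 fold change of -2.33 ± 0.18 (SE, FDR 1.96e-06) with no overlap. Labelled KO libraries had Psmd11 at 237, 230.0, 252, 271 and 227 CPM in somata and 112, 31.4, 50.2, 47.9 and 58.4 CPM in growth cones, where growth cone library 7 was the highest of its group and still below every soma library (-1.94 ± 0.29 SE, FDR 2.85e-04). Psmd7, the partner of the deubiquitinase Psmd14 and the lid transcript with the highest TPM (Psmd14 and Psmd8 were higher by transcript length in somata and growth cones), moved less, from 313, 278, 304, 304 and 326 CPM in WT somata to 150.0, 189, 159.5, 178 and 181 CPM in WT growth cones (-0.78 ± 0.12 SE, FDR 1.95e-04). Its labelled KO values were 264, 299, 293, 281 and 267 CPM and 143, 143, 169, 139 and 212 CPM, again without overlap (-0.72 ± 0.14 SE, FDR 0.00176). Psmd14, which cuts ubiquitin off the substrate, fell by 1.64 on the log2 scale in WT and by 1.12 in labelled KO. Exons of Psmd3 and Psmd13 overlap other genes on the opposite strand, as do those of Psma4, Psma5, Psmb7, Psmb8, Psmb9, Psmc3 and Psme1, and reads of such pairs cannot be told apart where counting ignores strand. Of the remaining lid genes, Psmd13 (-1.82 in WT, -2.04 in labelled KO), Psmd6 (-1.70, -1.61), Psmd12 (-1.40, -1.18) and Psmd3 (-1.37, -1.66) passed the test in both genotypes. Psmd8 passed it in WT (-0.51 ± 0.16 SE, FDR 0.0259), though not under upper-quartile scaling (-0.29, FDR 0.209) or without WT soma library 12 (-0.33, FDR 0.131), and in labelled KO its log2 fold change was -0.18 ± 0.18 (SE, FDR 0.456).

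The base ATPases form 1 ring, and their transcripts moved by different amounts. Psmc4 stood at 287, 244, 279, 273 and 285 CPM in WT somata and 88.0, 78.1, 60.7, 104 and 125 CPM in WT growth cones (-1.54 ± 0.19 SE, FDR 4.80e-05). Its labelled KO levels were 201, 245, 232, 249 and 256 CPM and 131, 95.9, 70.9, 77.1 and 60.0 CPM (-1.36 ± 0.21 SE, FDR 3.11e-04), so the compartments did not overlap in either genotype. Psmc1, the ATPase transcript with the highest TPM, was at 456, 364, 459, 443 and 453 CPM in WT somata and at 262, 134, 216, 311 and 251 CPM in WT growth cones (-0.84 ± 0.20 SE, FDR 0.00434). In labelled KO, growth cone library 11 at 387 CPM and library 7 at 329 CPM lay within or at the edge of the soma range of 329 to 444 CPM, and the log2 fold change was -0.46 ± 0.21 (SE, FDR 0.102). Without growth cone library 11 the value was -0.65 and passed the test (FDR 0.0156). Psmc2 and Psmc5 fell in WT (-1.11 and -1.20), and their values in labelled KO were -0.48 ± 0.28 (SE, FDR 0.189) and -0.64 ± 0.30 (SE, FDR 0.118). Psmc3 fell in both (-1.03 and -1.26), and Psmc6 had -0.35 ± 0.20 (SE, FDR 0.19) in WT and -0.43 ± 0.15 (SE, FDR 0.0375) in labelled KO.

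In the alpha rings, which gate the barrel, Psma5 changed with the lowest p. Its level was 274, 179, 208, 191 and 248 CPM in WT somata and 66.1, 61.3, 68.4, 84.3 and 115 CPM in WT growth cones (-1.43 ± 0.21 SE, FDR 1.60e-04). Labelled KO libraries had Psma5 at 176, 229, 245, 232 and 238 CPM in somata and 116, 81.7, 98.8, 62.5 and 131 CPM in growth cones (-1.11 ± 0.20 SE, FDR 0.00109). The compartments did not overlap in either genotype. Psma6, the alpha transcript with the highest TPM (Psma7 was higher by transcript length), stood at 393, 279.6, 286, 304 and 319 CPM in WT somata and 183, 124, 134, 154 and 146 CPM in WT growth cones, without overlap (-1.05 ± 0.15 SE, FDR 1.78e-04). The labelled KO libraries had Psma6 at 267, 308, 327, 299 and 261 CPM in somata and at 297, 101, 169, 137 and 148 CPM in growth cones, where library 7 reached the soma range (-0.70 ± 0.25 SE, FDR 0.0425). That call did not hold under upper-quartile scaling (FDR 0.131) or when any of 8 libraries was left out (FDR 0.053 to 0.0822). Psma3 and Psma7 did not pass the test in either genotype. Psma7 stood at 413 ± 68.9 CPM (SD, n = 5) in WT somata and 467 ± 95.5 CPM (SD, n = 5) in WT growth cones, with overlapping groups and a log2 fold change of 0.22 ± 0.17 (SE, FDR 0.327). Psma1 and Psma4 passed the test in both genotypes, and Psma2 in WT (-0.42, against -0.12 and FDR 0.64 in labelled KO). The calls of Psma4 did not hold under upper-quartile scaling (FDR 0.0692 in WT and 0.19 in labelled KO), nor did that of Psma2 (FDR 0.259) under this or any other scaling tried.

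The 3 catalytic subunits of the standard core did not move together. Psmb5 (ENSMUSG00000022193.7, chr14:54614119-54618022), which carries the chymotrypsin-like site, stood at 287, 186, 230.0, 230.4 and 235 CPM in WT somata. It stood at 69.7, 61.0, 53.1, 29.3 and 44.9 CPM in WT growth cones, all below the lowest soma library (-2.13 ± 0.23 SE, FDR 1.94e-05), the lowest log2 fold change of the 14 core genes. The labelled KO libraries gave 185, 212, 228, 233 and 255 CPM in somata and 73.9, 38.8, 64.8, 68.6 and 43.8 CPM in growth cones, again apart (-1.86 ± 0.20 SE, FDR 2.84e-05). Psmb6 (ENSMUSG00000018286.6, chr11:70525367-70527858), which carries the caspase-like site, was at 628, 457, 538, 521 and 525 CPM in WT somata and 466, 552, 378, 336 and 411 CPM in WT growth cones. These groups overlapped, and the log2 fold change was -0.27 ± 0.15 (SE, FDR 0.171). Labelled KO libraries had Psmb6 at 417, 559.7, 542, 491 and 516 CPM in somata and at 675, 369.9, 473, 287 and 335 CPM in growth cones (-0.15 ± 0.21 SE, FDR 0.608), with growth cone library 7 the highest of all 20. Under upper-quartile scaling that value was 0.042. Psmb7, with the trypsin-like site, lay between them at -0.58 ± 0.18 (SE, FDR 0.0219) in WT and -0.41 ± 0.18 (SE, FDR 0.0901) in labelled KO.

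The log2 ratio of Psmb5 to Psmb6 CPM within a library removes scaling between libraries. It was -1.13, -1.29, -1.23, -1.18 and -1.16 in the WT soma libraries and -2.74, -3.18, -2.83, -3.52 and -3.20 in the WT growth cone libraries. In labelled KO libraries it was -1.18, -1.40, -1.25, -1.07 and -1.02 in somata and -3.19, -3.25, -2.87, -2.07 and -2.93 in growth cones. In both genotypes every growth cone library was below every soma library. Named pseudogenes of both genes are in the table, and they held at most 0.399% of the Psmb5 count (Psmb5-ps) and at most 0.301% of the Psmb6 count (Psmb6-ps2) in any library. Exons of Psmb5 also overlap the microRNA gene Mir686 on the same strand. The other beta genes Psmb2, Psmb3 and Psmb4 were lower in WT (-0.94, -0.95 and -0.81), and Psmb1 had -0.36 ± 0.16 (SE, FDR 0.0926) in WT and -0.38 ± 0.12 (SE, FDR 0.0225) in labelled KO. The labelled KO call of Psmb1 was lost under upper-quartile scaling (-0.18, FDR 0.262) and library-total scaling (-0.28, FDR 0.0532), and with length offsets its sign changed (0.09, FDR 0.68).

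**Figure D2:**
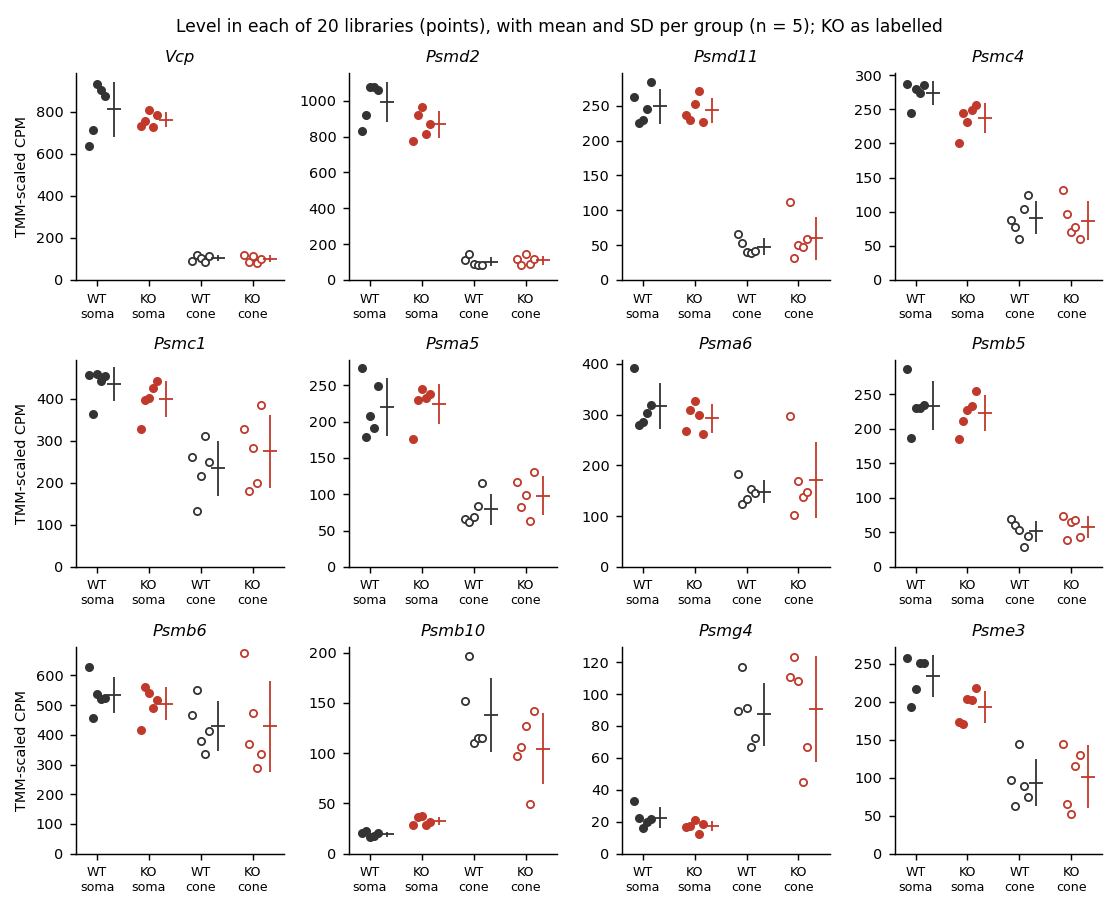
Level in TMM-scaled CPM (linear axis from 0) of 12 members in each of the 20 libraries, filled points for somata and open points for growth cones, with the mean and SD of each group of 5 beside them. Vcp, Psmd2, Psmd11, Psmc4, Psma5 and Psmb5 show growth cones below somata without overlap in both genotypes, Psmb6 shows overlap, and Psmb10 and Psmg4 show growth cones above somata.

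Psmb10 (ENSMUSG00000031897.9, chr8:105935735-105938444) encodes the immune counterpart of Psmb7, used in immunoproteasomes. It stood at 20.6, 22.1, 16.6, 17.4 and 20.1 CPM in WT somata and at 152, 197, 110.4, 115 and 115 CPM in WT growth cones, 7.35-fold higher without overlap (log2 fold change 2.88 ± 0.22 SE, FDR 1.51e-06). The labelled KO levels were 28.2, 36.6, 37.6, 28.8 and 31.8 CPM in somata and 96.8, 107, 127, 49.6 and 142 CPM in growth cones (1.76 ± 0.27 SE, FDR 3.38e-04), and the lowest growth cone library, 10, was above every soma library. The other immune subunits had few counts. Psmb9 had 0 counts in 13 of 20 libraries and at most 148, and Psmb8 had 0 counts in 8 of 20 and at most 182. Psmb8, tested with log2 fold changes of 1.29 ± 1.85 (SE, FDR 0.61) in WT and -3.26 ± 1.44 (SE, FDR 0.095) in labelled KO, passed in neither. Psmb11, the thymus form, had 0 counts in 17 of 20 libraries and at most 3, and Psma8 had 0 in 17 of 20 and 264, 100 and 19 in the other three. Psma8, Psmb9 and Psmb11 did not pass the filter on low counts and were not tested. Microglia and blood cells are known for immune subunits. The 7 microglia markers summed to 3.42 to 107 CPM in WT somata and 41.6 to 73.3 CPM in WT growth cones, with 1 of 7 higher, and the 8 vessel and blood markers to 4.23 to 23.9 and 268 to 554 CPM, with 4 of 7 tested higher. Their part in the Psmb10 result was not tested.

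The assembly factors build the barrel and the base before the subunits are locked in. Psmg4 (ENSMUSG00000071451.10, chr13:34162964-34178173), which acts with Psmg3 on the alpha ring, rose. It stood at 33.1, 22.4, 16.1, 19.9 and 21.7 CPM in WT somata and 89.7, 117, 91.3, 66.8 and 72.4 CPM in WT growth cones, 3.98-fold higher without overlap (1.99 ± 0.25 SE, FDR 6.97e-05). Labelled KO levels of Psmg4 were 16.8, 17.1, 20.9, 12.4 and 18.6 CPM and 111, 123, 108, 45.1 and 66.9 CPM (2.49 ± 0.31 SE, FDR 7.85e-05). Psmg4 has the shortest exon length of the members, 555 bases, and with offsets that remove each library's trend of level with length its WT value was 0.34 and did not pass the test (FDR 0.26). In labelled KO its call held with these offsets and in every other alternative. Psmd5, a chaperone of the base, fell from 193, 179, 197, 174 and 214 CPM in WT somata to 84.1, 70.0, 58.8, 76.1 and 84.6 CPM in WT growth cones (-1.31 ± 0.15 SE, FDR 2.95e-05). Its labelled KO values were 178, 196, 202, 233 and 206 CPM in somata and 43.5, 64.8, 81.1, 72.2 and 67.7 CPM in growth cones (-1.54 ± 0.17 SE, FDR 3.81e-05), and no compartments overlapped. Psmg1 fell in both genotypes (-0.94 and -1.05). Psmg2, Psmg3, Psmd9 and Psmd10 passed the test in neither, with WT values of -0.35, 0.23, 0.02 and 0.02. Exons of Psmg3 overlap Gm26938 on the same strand.

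Activators cap the barrel in place of the regulatory particle. Psme3, a nuclear activator, stood at 258, 193, 217, 252 and 251 CPM in WT somata and 96.9, 62.6, 144, 88.9 and 75.2 CPM in WT growth cones, without overlap (-1.28 ± 0.21 SE, FDR 4.56e-04). In labelled KO libraries it was 173, 170.4, 203, 203 and 219 CPM in somata and 145, 65.5, 51.7, 116 and 130.2 CPM in growth cones (-0.85 ± 0.26 SE, FDR 0.0232). That labelled KO call did not hold under upper-quartile scaling (FDR 0.0625) or with length offsets (FDR 0.0578). Psme2, part of the interferon-inducible activator with Psme1, stood at 76.1, 46.5, 48.3, 60.2 and 62.9 CPM in WT somata and at 149.7, 141, 159, 50.8 and 53.4 CPM in WT growth cones. Growth cone libraries 7, 8 and 9 were high and 10 and 11 lay within the soma range, and the log2 fold change of 0.96 ± 0.34 (SE, FDR 0.0382) did not pass when any of 7 libraries was left out. With length offsets it was 0.26 (FDR 0.558), and it did not pass with limma-voom (FDR 0.0972) or without the low-count filter (FDR 0.0663). In labelled KO libraries Psme2 was 77.3, 78.2, 72.6, 70.2 and 71.0 CPM and 219, 106, 100.2, 69.5 and 105 CPM (0.78 ± 0.27 SE, FDR 0.0374). Without growth cone library 7 the value was 0.39 (FDR 0.0755), and with length offsets it was 0.11 (FDR 0.779). Its partner Psme1 had 0.06 ± 0.17 (SE, FDR 0.822) in WT. Psme4 had 0.80 ± 0.41 (SE, FDR 0.142), and Psmf1, a regulator of the core, had -0.54 ± 0.18 (SE, FDR 0.0263) in WT and -0.16 ± 0.17 (SE, FDR 0.478) in labelled KO.

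The labelled KO growth cones and somata are separate libraries from those of WT, so the same comparison in them shares no sample with the first. There 46 members were tested and 27 differed, 24 lower and 3 higher, where 38.6% of the 15410 genes tested differed, 17.0% lower and 21.6% higher. The median was -0.62 for the members and 0.11 for all genes. By role, 8 of 14 core genes (median -0.47), 3 of 6 base ATPases (median -0.56), 9 of 11 Psmd subunits (median -1.61) and 7 of 8 lid subunits were lower. Upper-quartile scaling, which moved the median of all genes from 0.11 to 0.31, left 18 lower and 5 higher (13.8% and 24.6% of all genes). Of the 27 calls, 7 were lost under at least 1 of the other settings or left-out libraries (Psma4, Psma6, Psmb1, Psmb2, Psmc6, Psme2 and Psme3). Both genotypes shared 25 calls in the same direction, 22 lower and 3 higher. These were 75.8% of the WT calls and 92.6% of the labelled KO calls, and over the 14569 genes tested in both the shares were 74.3% and 81.0%. Over the 46 members, which share their libraries within each genotype, the fold changes of WT and labelled KO had Pearson's r 0.78 and Spearman's rho 0.84 across genes, against 0.83 and 0.85 over all genes, and 43 of 46 had the same sign. Called in WT alone were Psma2, Psmb4, Psmb7, Psmc1, Psmc2, Psmc5, Psmd8 and Psmf1, and in labelled KO alone Psmb1 and Psmc6. In the test of the difference between genotypes, given further on, none of these 10 passed.

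The balance between the core, the ATPases and the Psmd subunits was then read within each library. Since CPM is not per length, only differences of these ratios between groups are read. The log2 ratio of the summed CPM of the 11 Psmd subunits to that of the 14 core subunits was -0.45, 0.00, 0.00, -0.01 and 0.01 in the WT soma libraries 12, 14, 22, 25 and 26. It was -1.25, -1.47, -1.31, -1.08 and -1.26 in WT growth cone libraries 7 to 11, and every one was below every soma library, library 12 included. In labelled KO it was -0.07, -0.15, -0.13, -0.08 and -0.09 in somata and -1.34, -1.20, -1.05, -1.14 and -1.31 in growth cones. The group means were -0.09 ± 0.20 and -1.27 ± 0.14 (SD, n = 5) in WT and -0.10 ± 0.03 and -1.21 ± 0.12 (SD, n = 5) in labelled KO. Psmd1 and Psmd2 carry part of this: without them the means were -0.81 ± 0.12 and -1.51 ± 0.19 (SD, n = 5) in WT, ranging from -1.03 to -0.72 and from -1.79 to -1.25. Summed as TPM, which scales counts by exon length, the WT means were -0.94 ± 0.18 and -1.71 ± 0.15 (SD, n = 5), a smaller difference. The core genes have 603 to 831 coding bases and these Psmd subunits 930 to 2859, so the ranges do not overlap. Over all genes, too, a longer coding sequence went with a lower fold change (given below). The shift of the Psmd subunits against the core cannot be told apart from this difference in coding length.

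The ATPases moved less against the core. Their log2 ratio of summed CPM was -1.16 ± 0.11 (SD, n = 5) in WT somata and -1.68 ± 0.46 (SD, n = 5) in WT growth cones. The growth cone libraries were spread over -2.37 to -1.10, from library 8 to library 10, and overlapped the somata at -1.34 to -1.04. In labelled KO libraries the ranges were -1.27 to -1.11 in somata and -1.88 to -1.40 in growth cones, which did not overlap. These ratios are scores over chosen genes and were given no test. The ATPases other than Psmc2, which has no annotated coding length, have 1167 to 1353 coding bases, all above the core range. Their shift against the core cannot be told apart from this difference in coding length either.

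**Figure D3:**
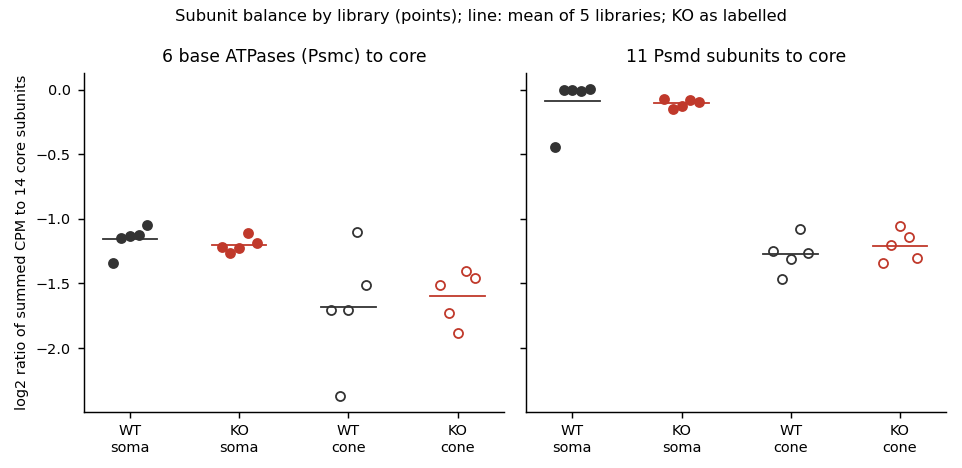
Log2 ratio of summed CPM to the 14 core subunits in each library, for the 6 base ATPases (left) and the 11 Psmd subunits (right), with filled points for somata, open points for growth cones and a line at the mean of 5. The Psmd ratios of growth cones (-1.47 to -1.05) lie below all soma libraries, and the ATPase ratios overlap in WT.

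Levels were compared between genes as TPM, with the summed length of all annotated exons, which exceeds the length of 1 transcript for genes with many isoforms. Psmb6 had the highest mean TPM of the 49 members in all 4 groups, at 919.5 ± 66.5 TPM in WT somata and 611 ± 62.4 TPM in WT growth cones (SD, n = 5). Psmb5 was at place 2 in WT somata with 837 ± 93.1 TPM, below Psmb6 in each of these libraries, and at place 17 in WT growth cones with 152 ± 36.1 TPM. Psmd2 went from place 4 at 796 ± 94.8 TPM to place 32 at 67.9 ± 10.7 TPM, and Vcp from place 8 at 541 ± 86.2 TPM to place 34 at 56.8 ± 5.54 TPM. Upward, Psmg4 went from place 34 at 132 ± 34.1 TPM to place 2 at 420.1 ± 61.1 TPM, and Psma7 from place 11 to place 3 (433 ± 56.6 and 405 ± 57.2 TPM). Psmb10 went from place 42 at 36.9 ± 5.66 TPM to place 9 at 215 ± 39.4 TPM. In labelled KO the places of Psmb5 (2 and 17), Psmd2 (5 and 30), Vcp (9 and 34) and Psmg4 (36 and 2) were close to these. The places depend on the length used. By CPM over the length of the transcript with the longest coding sequence, chosen after seeing the data and known for 48 members, Psmb6 kept place 1 in all 4 groups and Psma7 (914 bases, against 3071 exon bases) was at place 2 in all 4. Psmb5 was then at place 8 in WT somata and 26 in WT growth cones, Psmd2 at 5 and 32, Vcp at 9 and 36, Psmg4 at 38 and 5, and Psmb10 at 43 and 16.

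Gene length went along with the fold changes. Over the 45 tested members with an annotated coding length, log2 coding length and log2 fold change had Pearson's r -0.46 and rho -0.53 in WT and -0.51 and -0.57 in labelled KO, as a description across genes. Over all genes with a coding length, r was -0.26 and -0.29. In WT the 26 members with under 900 coding bases had a median log2 fold change of -0.39, where that of the 3290 genes in this class was 0.81. The 13 members of 900 to 1500 bases had -1.20, where 3367 genes had -0.19, and the 6 members above that had -2.12, where 5553 genes had -0.52. In each class the members' median was below that of genes of like length. Within the 14 core genes the relation depended on the length measure: coding length had r 0.01 in WT and -0.01 in labelled KO, while total exon length had 0.78 and 0.69. Psmb5 and Psmb6 have 792 and 714 coding bases and 899 and 1872 exon bases. Within the 11 Psmd subunits both measures went with lower fold changes. Coding length had r -0.77 in WT and -0.76 in labelled KO, and total exon length had -0.66 and -0.66. With length offsets 33 members were called in WT, 30 of them lower, where 37.5% of all genes were called and 17.2% were lower. In labelled KO 30 were called, 26 of them lower, where the shares were 32.7% and 13.6%. Total exon length in the table, which counts every annotated isoform, gave r -0.25 in WT and -0.33 in labelled KO over 46 members.

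**Figure D4:**
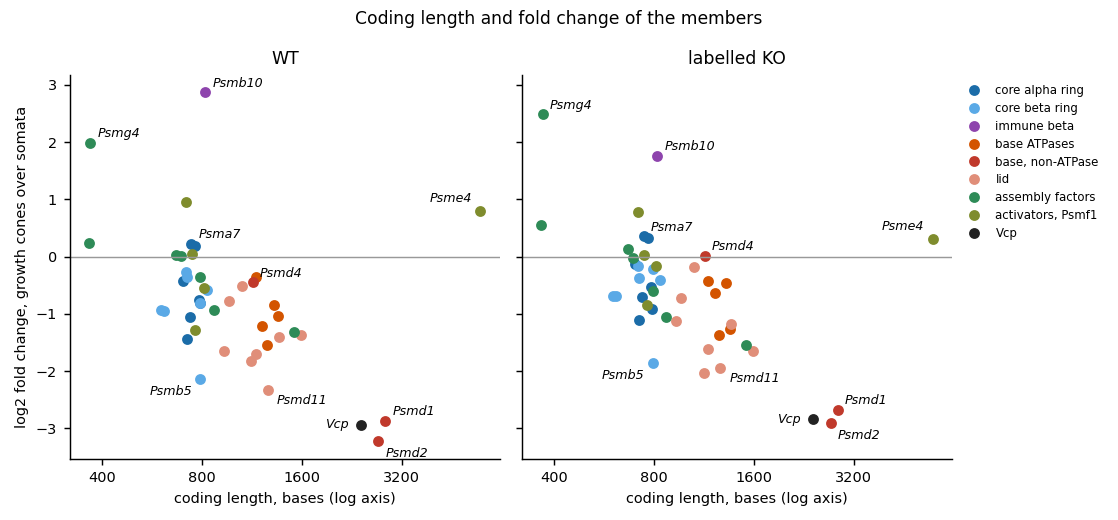
Coding length in bases (log axis) against log2 fold change, growth cones over somata, for 44 tested members in WT (left) and labelled KO (right), coloured by role, with Psmb8 not drawn and Psmc2 without an annotated coding length. Vcp, Psmd1 and Psmd2 lie low at the right, Psmg4 lies high at the left, and the longest member, Psme4, lies above 0.

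The next comparisons ask what the KO label changes within a compartment. In growth cones none of the 45 members tested differed by edgeR, as none of all 15419 genes did (0.00%), and 2 members had an unadjusted p under 0.05, against 2.13% of all genes. No member's groups were apart, against 0.532% of all genes. Psmb4, a beta ring gene, was at 117, 133, 117, 109 and 116 CPM in WT growth cones and 179.7, 157, 129, 129.6 and 226 CPM in labelled KO growth cones. The groups overlapped narrowly, with a log2 fold change, labelled KO over WT, of 0.48 ± 0.18 (SE, FDR 0.999) and an unadjusted edgeR p of 0.0173. The lid deubiquitinase gene Psmd14 was at 93.7, 79.8, 106, 118 and 84.3 CPM in WT and 171, 122, 155, 97.3 and 114 CPM in labelled KO (0.45 ± 0.20 SE, FDR 0.999), and Psmd8 was at 221, 171, 166, 158 and 146 CPM and 302, 181, 231, 150.0 and 208 CPM (0.32 ± 0.19 SE, FDR 0.999). Both overlapped. DESeq2 called 11 genes in this comparison and none was a member. The members' median was 0.07 and that of all genes 0.01. Without labelled KO growth cone library 7 the members' median was -0.02, and without labelled KO library 8 it was 0.15.

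In somata none of the 46 members tested differed at FDR 0.05 by edgeR, where 0.731% of 14911 genes did (0.416% higher and 0.315% lower), and 5 members had an unadjusted p under 0.05, where 8.57% of all genes did. Psmb10 came nearest: its 20.6, 22.1, 16.6, 17.4 and 20.1 CPM in WT somata and 28.2, 36.6, 37.6, 28.8 and 31.8 CPM in labelled KO somata did not overlap, as in 3.17% of all genes (1.87% higher), and the log2 fold change was 0.75 ± 0.17 (SE, FDR 0.08). It passed at FDR 0.10 and, by DESeq2, at 0.05 (adjusted p 0.00102). Of 8 interneuron markers 1 was called, Npy, at 88.0 to 157 CPM in WT somata and 389.6 to 509 CPM in labelled KO somata. The other 7 summed to 20.7 to 64.2 and 12.5 to 57.5 CPM, which overlap. The microglia markers summed to 3.42 to 107 and 9.20 to 101 CPM, which overlap. The astrocyte markers summed to 19.1 to 201 and 98.9 to 251 CPM, which overlap. All of them had positive log2 fold changes and none passed the test. Sums of oligodendrocyte markers (65.9 to 128 and 88.9 to 126 CPM) and of vessel and blood markers (4.23 to 23.9 and 0.652 to 68.8 CPM) overlapped too. The part of other cells in the Psmb10 value was not tested. Psme3 at 173, 170.4, 203, 203 and 219 CPM in labelled KO somata, against 258, 193, 217, 252 and 251 CPM in WT, had 3 libraries above the lowest WT library (-0.28 ± 0.11 SE, FDR 0.471), and Psmc4 had -0.21 ± 0.09 (SE, FDR 0.506). The core, ATPase and Psmd medians were -0.08, -0.14 and -0.04, with all genes at 0.00. Over all members the median was -0.08, and it moved with single libraries. It was -0.006 without WT soma library 12 and -0.12 without WT soma library 14.

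The difference between these effects, growth cones against somata, was tested on all 20 libraries. None of the 46 members passed, where 0.0397% of 17645 genes did (0.0113% higher and 0.0283% lower). An unadjusted p under 0.05 was found for 3 members and for 6.98% of all genes. Psmb10 had an interaction of -1.15 ± 0.33 (SE, FDR 0.345), and by DESeq2 its adjusted p was 0.0427. Psmb4 had 0.56 ± 0.22 (SE, FDR 0.554) and Psmd14 0.49 ± 0.23 (SE, FDR 0.704). The members' median standard error of labelled KO over WT was 0.25 in growth cones and 0.12 in somata on the log2 scale, so that smaller differences were less detectable in growth cones.

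**Figure D5:**
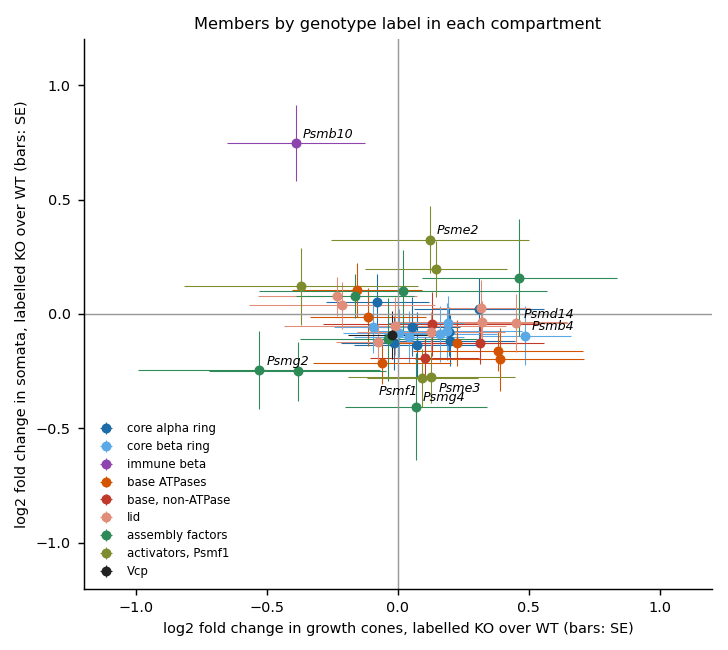
Log2 fold change, labelled KO over WT, in growth cones (horizontal) and in somata (vertical) for the 45 members tested in both, coloured by role, with bars for the standard error. Most points lie within 0.5 of 0 on both axes, and Psmb10 lies apart at -0.39 in growth cones and 0.75 in somata.

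Genes of the pathway with other names were read from lists, 79 genes in 5 lists of which 78 were in the table and tested. In WT 21 were higher and 24 lower in growth cones, with a median of -0.25. Over all genes tested 23.1% were higher and 19.7% lower. In labelled KO 19 were higher and 24 lower (median -0.19), where 21.6% and 17.0% of all genes were. The counts of each list below are to be read beside these shares. No gene of these lists passed in either genotype comparison or the interaction. Among subunits and partners with other names, 3 of 10 were higher and 4 lower in WT. Sem1, the smallest lid subunit, rose (2.02 ± 0.17 SE, FDR 3.20e-06, and 2.08 in labelled KO), and so did Pomp, the core maturation factor (0.66 ± 0.16 SE, FDR 0.00557, with 0.49 and FDR 0.0583 in labelled KO). Usp14, a deubiquitinase that docks on Psmd2, and the ligase gene Ube3c fell (-1.71 ± 0.23 SE, FDR 1.00e-04 and -1.49 ± 0.25 SE, FDR 5.45e-04).

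Of the 22 Vcp cofactors 3 were higher and 9 lower in WT. Ubxn1 rose (1.80 ± 0.22 SE, FDR 5.06e-05), and Plaa (-1.73 ± 0.20 SE, FDR 2.98e-05) and Faf1 (-1.63 ± 0.21 SE, FDR 7.83e-05) fell. Zfand2b had 0.83 ± 0.26 (SE, FDR 0.0195) in WT and 0.29 with FDR 0.584 in labelled KO. Of 9 genes for shuttle factors and proteasome transcription factors, 1 was higher and 1 lower: the paralogs Ubqln2 (1.83 ± 0.23 SE, FDR 6.62e-05) and Ubqln1 (-1.82 ± 0.18 SE, FDR 9.86e-06) went opposite ways in WT, and in labelled KO too (1.45 and -1.77). Nfe2l1 had -0.79 ± 0.32 (SE, FDR 0.0655).

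Of 8 genes for ubiquitin, its activating enzymes and recycling, 2 were higher and 5 lower in WT. Rps27a, which encodes ubiquitin fused to a ribosomal protein, rose (1.43 ± 0.21 SE, FDR 1.66e-04), and the activating enzyme gene Uba1 fell (-2.67 ± 0.19 SE, FDR 8.23e-07). Of 29 ubiquitin-conjugating enzymes 12 were higher and 5 lower, with Cdc34 (1.92 ± 0.17 SE, FDR 4.02e-06) and Ube2d2a (1.43 ± 0.14 SE, FDR 7.89e-06) among the higher and Ube2g1 (-1.31 ± 0.15 SE, FDR 2.82e-05) and Ube2n (-0.74 ± 0.14 SE, FDR 0.00105) among the lower.

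Other large complexes were read in the same way, beside the 19.7% of all genes that were lower in WT and the 23.1% that were higher. The COP9 signalosome and the translation factor eIF3 are built on the same plan as the lid. In WT 3 of 9 COP9 genes were lower and none higher (median -0.40), among them Gps1 (-1.26 ± 0.13 SE, FDR 1.10e-05) and Cops8 (-0.55 ± 0.18 SE, FDR 0.0256). Of 13 eIF3 genes 6 were lower and 4 higher (median -0.12), with Eif3b (-1.70 ± 0.14 SE, FDR 2.91e-06) and Eif3c (-1.12 ± 0.12 SE, FDR 2.06e-05) lower and Eif3f (1.54 ± 0.21 SE, FDR 1.09e-04) and Eif3i (1.12 ± 0.20 SE, FDR 6.89e-04) higher. The TRiC chaperonin had 7 of 8 genes lower and a median of -2.04, below the Psmd median of -1.64, with Cct7 at -2.21 ± 0.16 (SE, FDR 9.32e-07) and Cct8 at -2.13 ± 0.16 (SE, FDR 1.33e-06). In labelled KO the medians were -0.22 for COP9, -0.20 for eIF3 and -1.80 for TRiC. The differences between the complexes were not tested.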

How the data were processed

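The authors deposited 1 table of raw read counts per gene for 20 libraries, with a column of gene Length that is the summed length of annotated exons. Per the submitters' processing notes, Trimmomatic 0.39, STAR 2.7.1a and featureCounts 1.5.0 were used. The notes name GRCm39, but the exon coordinates in the deposited table equal those of GENCODE release 21 for mouse (GRCm38) for 54349 of 55487 genes (97.95%), and GRCm38 is used here. The use of strand and of reads with several alignments is not given in the sources used here. Per the labels' protocols, RNA was amplified with a SMART-seq kit, which does not use molecular identifiers, so counts are not independent molecules.

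All 20 count columns were matched to samples by the labels (0 unmatched), and 0 entries name no gene. Genes were kept by edgeR's filterByExpr (minimum count 10), scaled by TMM and tested with edgeR 4.0.16's quasi-likelihood F test (R 4.3.3) on the 2 groups compared, with Benjamini-Hochberg adjustment over all genes tested and a threshold of 0.05. The interaction was fitted on all 20 libraries. Standard errors are the fold change divided by the root of F. Levels are TMM-scaled CPM, and TPM uses the deposited exon length. The test was run on simulated data with known changes before it was used. There few genes were changed, as many up as down, and all genes and groups had the same spread. That run therefore does not cover comparisons where many genes differ or where the groups differ in spread. Alternatives were upper-quartile, DESeq2-type and library-total scaling, DESeq2 1.42.0, limma 3.58.1 (voom), no low-count filter, an FDR of 0.10, length offsets, 1 fit of all libraries, the experiment number as a block, and each library left out. Coding length and transcript length in place of exon length were chosen after seeing the data.

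The members and all gene lists were chosen with earlier results of these data known. Named with full values are Vcp, in each role the member with the lowest p in each direction among those called in WT, the member with the highest TPM in each role, and the 3 members with the lowest p in the genotype comparisons and the interaction. From each pathway list up to 2 genes in each direction were named by lowest p. Some genes that this rule selects are not reported here. Other members are given by count, range or fold change. Nfe2l1 and the Vcp pseudogene were chosen outside this rule, the pseudogene after its values were seen. Total counts ran from 18962308 to 51205154. As counts are not independent molecules, these totals do not give the counting precision. Coding lengths are from the GENCODE annotation, and promoter sequences are from RefSeq.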

Additional observations from a re-analysis of the deposited data

Results flagged for a closer look

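Each group of 5 libraries was read for a highest or lowest library that stands far from the others (gap to the nearest over the whole range above 0.71). Of 84 groups looked at, 4 were flagged, and chance flags about 1 in 20 groups, or 4.2 here. Psma5, an alpha ring gene, was lowest in labelled KO soma library 14 at 176 CPM, and the next library of the group was at 229 CPM. Psmc1, a base ATPase gene, was lowest in WT soma library 14 at 364 CPM, with the next at 443 CPM. Psme2, of the interferon-inducible activator, was highest in labelled KO growth cone library 7 at 219 CPM, with the next at 106 CPM. The log2 ratio of summed CPM of the Psmd subunits to the core was lowest in WT soma library 12 at -0.45, with the next at -0.01.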

How the results depend on the processing

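The number of members called between growth cones and somata was 27 to 35 in WT and 23 to 30 in labelled KO over the other settings (33 and 27 as reported), and 27 to 32 and 23 to 29 when 1 library was left out. It stayed at 0 for both genotype comparisons and the interaction when 1 library was left out. In somata 1 member, Psmb10, was called at an FDR of 0.10 and 1 with DESeq2, and 1 was called in the interaction with DESeq2. Of 777 pairs of a named result and a setting, 733 kept direction and side of the threshold, 33 lost the call, 10 gained it and 1 changed sign: Psmb6 in labelled KO was 0.042 under upper-quartile scaling. The cause was not tested. Of all called members, 25 of 33 in WT and 20 of 27 in labelled KO kept the call in each alternative, and Psmb1 in labelled KO also changed sign, to 0.09 with length offsets. Calls lost most often were Psme2 in both genotypes (in WT without any of soma libraries 14, 22, 25 and 26 or growth cone libraries 7, 8 and 9, FDR 0.056 to 0.0976, and in labelled KO without any soma library or growth cone libraries 7 and 8) and Psma6 in labelled KO (without soma libraries 14, 15, 22 and 25 or growth cone libraries 8 to 11).

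The balance of Psmd subunits to core, growth cones minus somata on the log2 scale, was -1.18 in WT and -1.10 in labelled KO from sums of CPM. It was -0.78 and -0.72 from TPM sums, and -0.56 and -0.57 from medians over subunits of log2 (CPM + 1). That of the ATPases in labelled KO went from -0.39 to -0.17 with medians. Leaving out 1 library gave -1.27 to -1.13 and -1.14 to -1.07 for the Psmd subunits, and -0.67 to -0.35 and -0.44 to -0.32 for the ATPases, in WT and labelled KO. The correlation of fold change with exon length across members was -0.25 in WT and -0.33 in labelled KO, and it was -0.0797 and -0.18 without a filter on low counts and -0.46 and -0.51 with coding length.

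With the experiment number as a replicate block, 0 members were called in growth cones, in somata or in the interaction, and the count over all genes was 0, 34 and 0, in place of 0, 109 and 7. Libraries with the same number in WT and labelled KO had correlations of deviations of -0.05 to 0.09, and 5 of 9 correlated best with their own number. The members with few counts were Psma8, Psmb8, Psmb9 and Psmb11. Whether library depth limits the other members was not tested.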

Other observations

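Vcp-rs, the processed pseudogene of Vcp on chromosome X, had a mean level of 19.1 CPM in WT somata, 12.7 CPM in labelled KO somata, 32.0 CPM in WT growth cones and 35.1 CPM in labelled KO growth cones. Its counts were 390 to 702 in the soma libraries and 488 to 1223 in the growth cone libraries, while Vcp itself was lower in growth cones. Reads of the parent and the copy may be shared, and this was not tested.

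Within the 6 members of 1500 or more coding bases, Psme4, an activator gene of 5529 coding bases and the longest of all, had a WT log2 fold change of 0.80 (SE 0.41, FDR 0.142), and the other 5 were lower in growth cones.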
